A study of Oryctolagus cuniculus with 20 samples.

Results

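Gene expression was compared between the tricuspid valves of rabbits given dexfenfluramine and those of rabbits given serotonin. The valves were chosen by the treatment in their sample names, 5 per group, which makes 10 of the 20 valves sequenced in the study, and the non-treated and pergolide valves took no part in the test. All animals were female New Zealand white rabbits that were 8 weeks old when treatment began, and treatment went on for 16 weeks by way of the drinking water. By the sample labels and the study's methods, dexfenfluramine was given at 20 mg/kg/day and serotonin at 80 mg/kg/day, although another passage of the study names a different dose of dexfenfluramine, and non-treated animals drank water. Since the doses differ, the effect of the compound and that of its dose cannot be told apart. Each library was made from total RNA of a whole valve after depletion of ribosomal RNA, and the values are numbers of reads counted on Ensembl genes of the rabbit.

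Serotonin is a signalling amine that valve cells sense through receptors on their surface, and long exposure of the heart to it is a known cause of valve thickening. Dexfenfluramine is an appetite suppressant that releases serotonin from nerve endings and platelets, and its main metabolite activates a serotonin receptor present on valvular interstitial cells. Those cells are the fibroblast-like cells that build and renew the collagen, proteoglycans and elastic fibres of the leaflet. The comparison asks where the valve transcriptomes of the drug and of the amine itself part.

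Between 3247091 (dexfenfluramine 3) and 5790948 (dexfenfluramine 5) reads were counted on genes per valve. The most counted gene, ENSOCUG00000029084, which has no symbol, held 20.3% to 34.3% of the counts in dexfenfluramine valves and 29.6% to 39.4% in serotonin valves. Levels are given below as CPM after TMM scaling, that is, counts relative to the scaled total of the valve. The factors lay between 1.02 and 1.55 in dexfenfluramine valves and between 0.624 and 1.03 in serotonin valves. Principal components of log2 CPM over the 500 genes of largest variance separated the groups. Scores on the first component, which held 49.6% of the variance, were 11, 12.5, 29.2, 11.5 and 4.88 in dexfenfluramine valves 1 to 5, and -9.64, -22.1, -7.96, -16.8 and -12.6 in serotonin valves 1 to 5. Dexfenfluramine 3 stood apart, with a score of -19.5 on the second component (17.8% of the variance), where the other valves of its group scored between 4.70 and 12.6. It had the fewest reads of the 10 valves, the lowest summed levels of cardiomyocyte and adipocyte markers and the highest summed level of fibroblast markers. List medians and calls that moved most without this valve are therefore given with and without it.

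**Figure D1:**
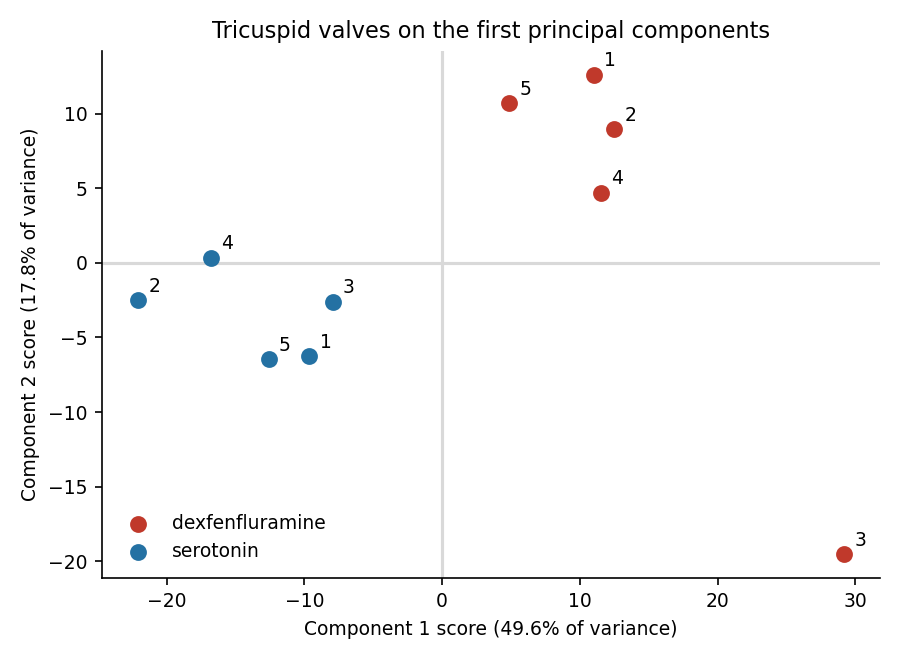
Scores of the 10 valves on the first component (49.6% of the variance) and the second component (17.8%) of log2 CPM over 500 genes, with points numbered by replicate and coloured by group. The groups lie on opposite sides of 0 on the first component, and dexfenfluramine 3 lies apart from the rest of its group on both.

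Of 8210 tested genes, 2506 were differentially expressed (DEGs, 30.5%) by edgeR's quasi-likelihood test at an adjusted p under 0.05 after TMM scaling, 1129 higher (13.8%) and 1377 lower (16.8%) with dexfenfluramine. Higher DEGs included 7 of 15 tested collagen chains and 12 of 24 genes of integrins and cell-matrix adhesion, while 1 and 3 members of these lists were lower. Lower DEGs included 11 of 13 proteins encoded in the mitochondrial genome, 51 of 80 splicing factors and 31 of 48 ribosome biogenesis factors, while 12 splicing and 5 biogenesis factors were higher. Among single genes, the collagen chaperone SERPINH1 was 2.47-fold higher, collagen type III, COL3A1, 1.53-fold higher and RPSA, a ribosomal protein gene, 3.73-fold higher. The mitochondrial COX2 transcript was 3.14-fold lower, the RNA-binding protein gene HNRNPA3 2.12-fold lower and the troponin gene TNNT2 6.63-fold lower. At an unadjusted p under 0.05 the number was 3395. The median log2 fold change of all tested genes, dexfenfluramine minus serotonin, was 0.02, that of the higher DEGs 0.60 and that of the lower DEGs -0.66. Changes of at least 2-fold were found in 144 higher and 298 lower DEGs. The 5 values of the groups did not overlap in 1770 tested genes (21.6%), of which 1697 were DEGs. Without dexfenfluramine 3 there were 2450 DEGs, and 2239 of the 2506 (89.3%) were kept in the same direction.

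**Figure D2:**
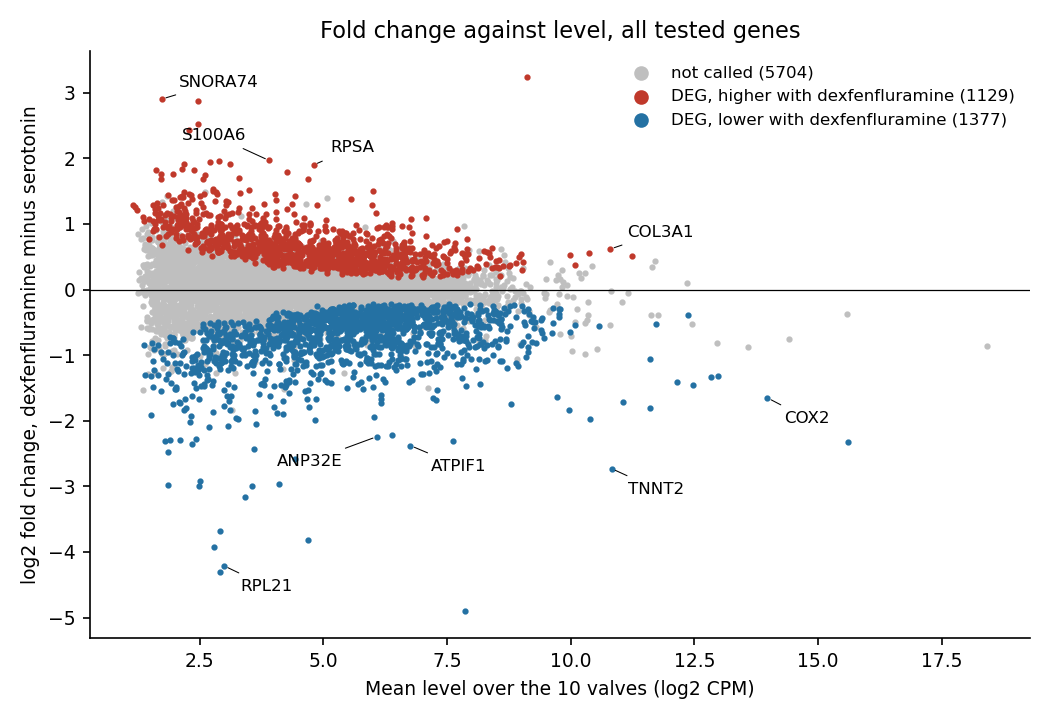
Log2 fold change (dexfenfluramine minus serotonin) of the 8210 tested genes against their mean log2 CPM over the 10 valves, with each point a gene, higher DEGs (1129) in red, lower DEGs (1377) in blue and the other genes in grey. Lower DEGs reach larger sizes of change than higher DEGs, and the lower DEGs at high levels include mitochondrial transcripts such as COX2.

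These directions are relative to the bulk of the tested genes, which TMM scaling holds near 0. In a fit chosen after seeing the data, with total counts and no scaling factor, 4001 genes were DEGs, 3810 higher and 191 lower, the median log2 fold change of all tested genes was 0.57 and 52.7% of the 2506 DEGs were kept in the same direction. List medians rose with that of all genes, to 0.83 for collagen chains and 0.87 for adhesion genes, so that a list above 0 could only stay there, while mitochondrially encoded proteins stayed lower (10 of 13, median -0.90). Splicing factors did not stay lower, with 11 lower and 23 higher (median 0.07), nor did biogenesis factors, with 8 lower and 7 higher (median -0.02). The medians of nuclear subunits of oxidative phosphorylation (-0.02), mitochondrial ribosome and import (0.04) and the sarcomere list (0.004) were likewise near 0, and those of the tricarboxylic acid cycle (0.40), fatty acid metabolism (0.33), glycolysis (0.33), the cytoskeleton (0.41), chaperones (0.51), the proteasome (0.41) and the cardiomyocyte (0.04), smooth muscle (0.34), Schwann cell (0.37) and erythroid markers (0.10) turned above 0. No member was lower in the lists of collagen chains, collagen modification, matrix glycoproteins, adhesion, TGF-β and BMP signalling, fatty acid metabolism or glycolysis, so that the members given below as lower in these lists lost that call. Of the genes chosen by the naming rule, HNRNPA2B1 (log2 fold change -0.39, adjusted p = 0.09), CLTA (-0.49, adjusted p = 0.057), PSMD7 (-0.41, adjusted p = 0.083), RPL11 (-0.34, adjusted p = 0.19), BCAR1 (-0.19, adjusted p = 0.42), IFNGR1 (-0.12, adjusted p = 0.64), PDHA1 (-0.25, adjusted p = 0.25), DLD (-0.15, adjusted p = 0.47), ANTXR2 (-0.05, adjusted p = 0.85) and EMCN (-0.04, adjusted p = 0.88) no longer passed. CTSV (0.12), SCP2 (0.13), PECAM1 (0.16), NCAM1 (0.23), GYPC (0.10) and MGP (0.52) changed sign without passing, and HAPLN1 (1.20, adjusted p = 0.01) passed. Which scaling is nearer to amounts of RNA per valve was not tested.

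The counts of higher and lower members in the fit with total counts and no scaling factor were as follows. In the matrix, they were 13 and 0 for collagen chains, 9 and 0 for collagen modification, 19 and 0 for proteoglycans, 22 and 0 for matrix glycoproteins and 14 and 1 for proteases. In adhesion and signalling, they were 18 and 0 for integrins, 19 and 0 for TGF-β and BMP, 22 and 0 for growth factors and WNT, 4 and 1 for serotonin genes, 7 and 0 for clock genes and 22 and 2 for immune genes (median 0.76). Lists with as many or more lower than higher members after TMM scaling turned to more higher members for translation factors (18 and 3, median 0.62), the cytoskeleton (25 and 1), chaperones (27 and 5), the proteasome (16 and 1), small nucleolar and Cajal body RNAs (12 and 5, median -0.09), mitochondrial ribosome and import (5 and 3), the tricarboxylic acid cycle (4 and 0) and endothelial markers (3 and 0, median 0.63). Nuclear subunits of oxidative phosphorylation had 5 and 7, the sarcomere list 3 and 3, fatty acid metabolism 13 and 0 and glycolysis 6 and 0. Of the other cell types, cardiomyocyte markers had 0 and 1, fibroblast markers 7 and 0, macrophage markers 5 and 0, smooth muscle markers 2 and 1 and Schwann cell markers 2 and 1.

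Symbols were known for 3450 of the tested genes (42.0%), and these come from the study's own lists of genes that differed from non-treated valves. Genes with a symbol were therefore already selected on these libraries, and 52.8% of them were DEGs here (23.7% higher, 29.1% lower, median log2 fold change -0.02), against 14.4% of genes without a symbol. Counts within the gene lists below are not independent of that selection and are to be read against both shares.

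Among DEGs with a symbol whose groups did not overlap, S100A6 and RPSA were among the largest increases. S100A6 (ENSOCUG00000024096), which encodes a small calcium-binding protein, was at 26.3, 19.3, 30.6, 16.6 and 18.7 CPM in dexfenfluramine valves 1 to 5 and at 7.01, 2.68, 7.88, 7.18 and 3.29 CPM in serotonin valves 1 to 5. Each dexfenfluramine valve lay above every serotonin valve, with a log2 fold change of 1.97 (SE 0.28, adjusted p = 0.00028). RPSA (ENSOCUG00000022661) was at 37.3, 41.1, 51.8, 34.6 and 46.3 CPM with dexfenfluramine and at 8.51, 14.7, 12.9, 11.8 and 8.98 CPM with serotonin. The groups were again far apart (log2 fold change 1.90, SE 0.17, adjusted p = 1.9e-05), although processed copies of this gene may share its reads. CXCR4 (ENSOCUG00000001923), a chemokine receptor, was at 30.7, 19.9, 44.2, 28.3 and 18.9 CPM with dexfenfluramine and at 5.76, 7.03, 9.77, 9.77 and 8.68 CPM with serotonin. Its highest level was that of dexfenfluramine 3, and the lowest dexfenfluramine valve was still above the highest serotonin valve (log2 fold change 1.79, SE 0.25, adjusted p = 0.0003). The other large increases by the same rule were those of SNORA68 (log2 fold change 1.91), TMEM181 (1.70), SNORA53 (1.69), QSOX1 (1.52), an enzyme that forms disulphide bonds in secreted proteins, and RPS26 (1.47).

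Among the decreases, ANP32E (ENSOCUG00000022805), a chaperone of a histone variant, was at 20.0, 19.9, 28.2, 23.7 and 26.9 CPM in dexfenfluramine valves and at 123, 148, 79.7, 106.0 and 107 CPM in serotonin valves. The spread within each group was small beside the distance between them, with a log2 fold change of -2.24 (SE 0.16, adjusted p = 9.4e-06). SLC22A2 (ENSOCUG00000002542), an organic cation transporter that carries serotonin among other amines, was at 32.8, 27.7, 28.6, 29.2 and 31.1 CPM with dexfenfluramine and at 79.8, 93.4, 77.2, 80.4 and 66.2 CPM with serotonin. The dexfenfluramine valves lay within a narrow band below all serotonin valves (log2 fold change -1.41, SE 0.10, adjusted p = 9.4e-06). Its mean in non-treated valves, 57.0 CPM, lay between those of the groups compared. Besides ANP32E, the largest decreases by the rule, all without overlap, were those of TNNT2 (-2.73), RPL36 (-2.44), ATPIF1 (-2.38), RPL23A (-2.21), HYPK (-1.98), SNORD99 (-1.98) and the mitochondrial ND4L (-1.98). The symbol RPL36 stands beside another in the source of symbols for the same gene identifier, so that its name is uncertain. The most counted lower DEG, ENSOCUG00000029082, has no symbol and was at a mean of 16610 CPM with dexfenfluramine and 83460 CPM with serotonin (log2 fold change -2.33, adjusted p = 0.0026). Of other genes without a symbol, ENSOCUG00000018201 was between 11.7 and 17.5 CPM with dexfenfluramine and between 196 and 980 CPM with serotonin (log2 fold change -4.90, SE 0.41, adjusted p = 1.9e-05). ENSOCUG00000018808 was between 818 and 1176 CPM with dexfenfluramine and between 83.3 and 157 CPM with serotonin (3.23, SE 0.19, adjusted p = 2.4e-06).

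**Figure D3:**
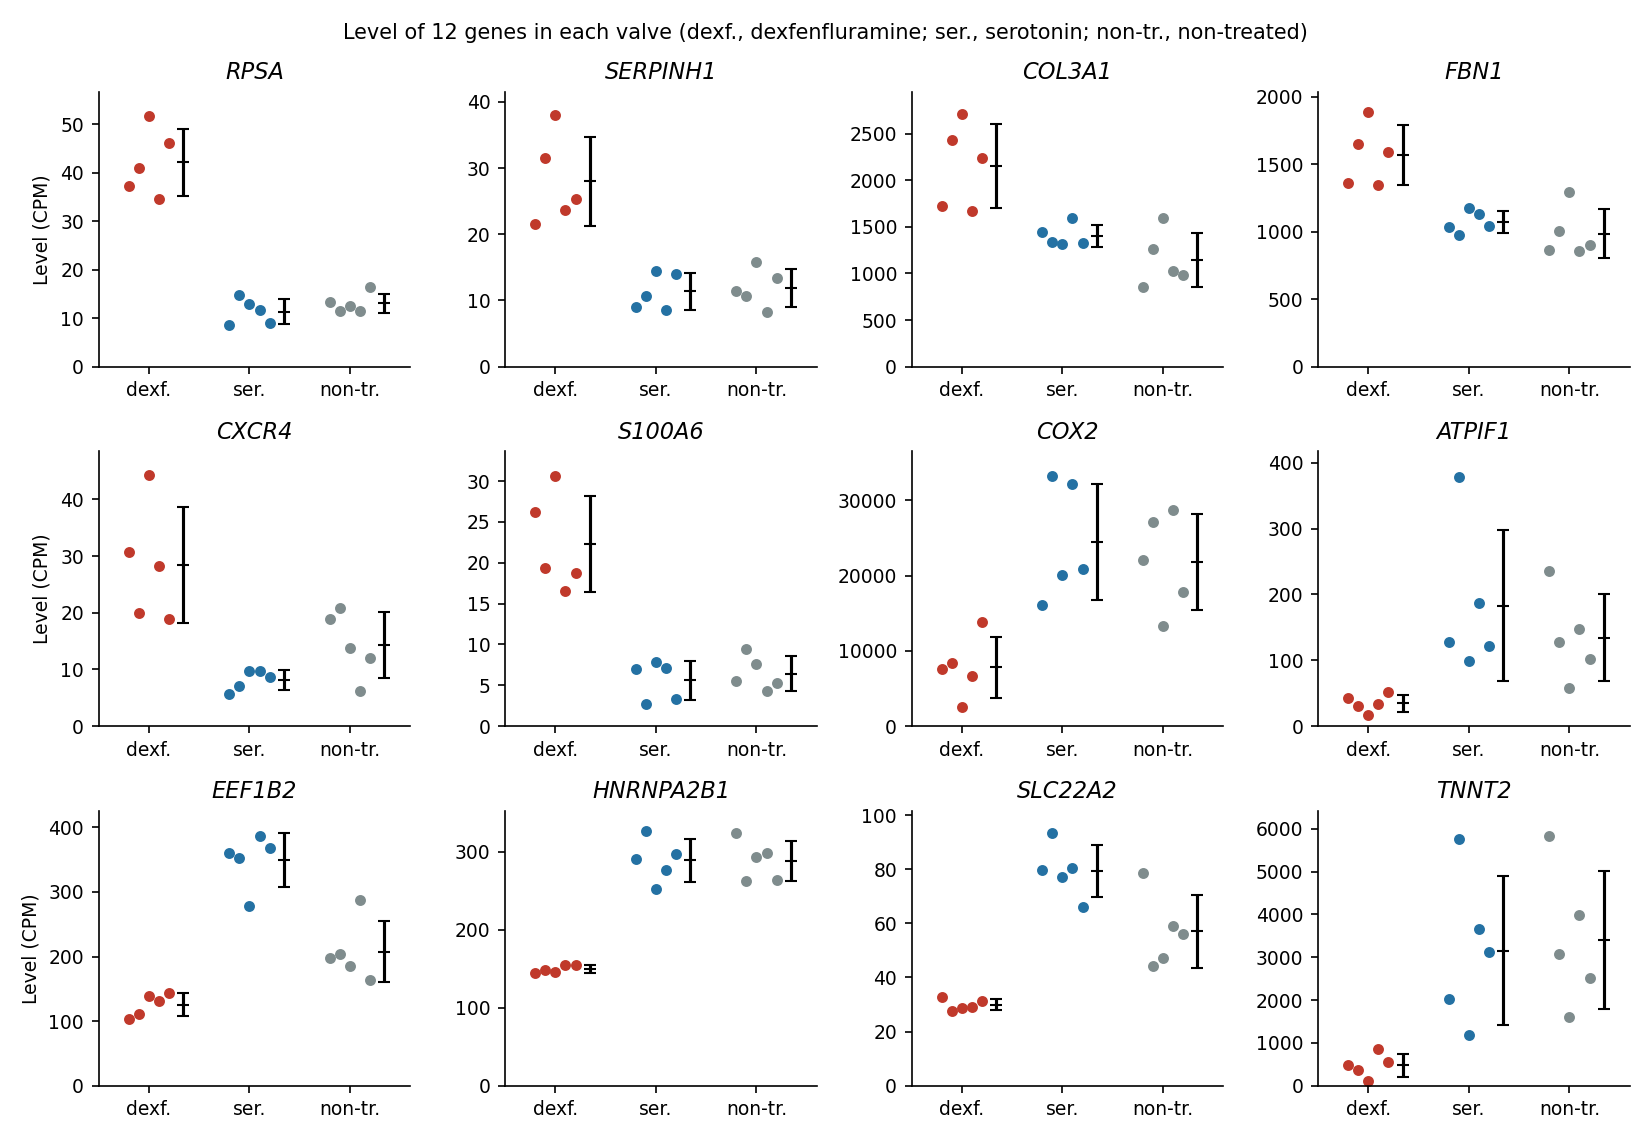
Level in CPM of 12 genes in each dexfenfluramine, serotonin and non-treated valve (dots), with bars for the mean ± SD of 5 valves. RPSA, SERPINH1, COL3A1, FBN1, CXCR4 and S100A6 are higher in every dexfenfluramine valve than in every serotonin valve, and COX2, ATPIF1, EEF1B2, HNRNPA2B1, SLC22A2 and TNNT2 are lower.

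Fibrillar and basement membrane collagens give the leaflet its tensile strength. Of 15 tested collagen chains, 7 were higher with dexfenfluramine, 1 was lower and 7 did not pass the test, with a median log2 fold change of 0.28 beside 0.02 for all tested genes. COL3A1 (ENSOCUG00000014988), the most counted chain, was at 1726, 2430, 2714, 1675 and 2239 CPM in dexfenfluramine valves and at 1447, 1340, 1319, 1598 and 1326 CPM in serotonin valves. No values overlapped, although dexfenfluramine 4 and serotonin 4 lay close together (log2 fold change 0.62, SE 0.15, adjusted p = 0.008). COL4A5 was at 118 ± 7.50 CPM with dexfenfluramine and 80.2 ± 4.04 CPM with serotonin (SD, n = 5; 0.56, SE 0.07, adjusted p = 0.00017). COL4A6, whose gene lies beside it, was at 55.0 ± 9.02 and 30.0 ± 2.71 CPM (0.87, SE 0.12, adjusted p = 0.0003). COL4A2 (0.90), COL1A1 (0.70) and COL5A2 (0.42) were also higher, and COL4A4 (-0.59) was lower. COL1A2 was at 911, 1433, 1578, 1007 and 1062 CPM with dexfenfluramine and at 872, 692, 763, 1081 and 754 CPM with serotonin. Its groups overlapped, and its log2 fold change of 0.53 (SE 0.17, adjusted p = 0.037) no longer passed without serotonin 2, 3 or 5 or dexfenfluramine 2 or 3 (adjusted p = 0.08, 0.075, 0.085, 0.079 and 0.053).

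Of 12 tested genes that fold, modify, cross-link or take up collagen, 5 were higher and 2 lower (median 0.35). SERPINH1 (ENSOCUG00000026029), which holds procollagen in the endoplasmic reticulum, was at 21.5, 31.6, 38.0, 23.7 and 25.3 CPM with dexfenfluramine and at 9.01, 10.7, 14.5, 8.62 and 14.1 CPM with serotonin. Every dexfenfluramine valve lay above all serotonin valves (log2 fold change 1.31, SE 0.20, adjusted p = 0.00048), and the non-treated mean was 11.9 CPM. MRC2, an endocytic receptor for collagen, was at 147 ± 33.2 CPM against 69.7 ± 13.7 CPM (SD, n = 5; 1.07, SE 0.17, adjusted p = 0.00061). The other higher members were FKBP10 (0.56), P4HA3 (1.29) and PLOD2 (0.45), and the lower were PPIB (-0.92) and MIA3 (-0.36). Without serotonin 2, serotonin 4 or dexfenfluramine 2, the number of higher members was 3.

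Proteoglycans and the enzymes that build their glycosaminoglycan side chains fill the spongy layer of the leaflet. Of 25 tested members, 10 were higher and none was lower in this test, with a median of 0.51. EXTL2 (0.83) and NDST1 (0.71), both enzymes of heparan sulphate synthesis, had the smallest p-values. EXTL2 was at 23.2 ± 1.99 CPM with dexfenfluramine and 13.03 ± 2.70 CPM with serotonin, and NDST1 at 41.3 ± 4.89 and 25.3 ± 4.07 CPM (SD, n = 5). The summed level of the list was 10040 CPM in dexfenfluramine 3, between 6004 and 6333 CPM in the others of that group and between 4604 and 6705 CPM in serotonin valves. Without dexfenfluramine 3, 9 members were higher and the median was 0.37. Without serotonin 5, 6 members were higher. The link protein gene HAPLN1 was at 79.4, 63.7, 144.5, 88.5 and 46.9 CPM with dexfenfluramine and at 86.6, 39.8, 58.0, 39.9 and 46.7 CPM with serotonin. Its groups overlapped and its log2 fold change of 0.63 did not pass the test (SE 0.29, adjusted p = 0.12). It was 0.87 (adjusted p = 0.035) without serotonin 1 and 0.79 (adjusted p = 0.049) without dexfenfluramine 5, 0.59 (adjusted p = 0.017) with 1 RUVr factor, and 0.37 without dexfenfluramine 3.

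Of 31 tested matrix glycoproteins and elastic fibre genes, 11 were higher and 2 lower (median 0.30, and 0.205 without dexfenfluramine 3). FBN1 (ENSOCUG00000003866), whose product forms the microfibrils around elastin, was at 1364, 1652, 1884, 1346 and 1591 CPM in dexfenfluramine valves and at 1033, 977, 1174, 1129 and 1039 CPM in serotonin valves. All dexfenfluramine valves lay above all serotonin valves (log2 fold change 0.55, SE 0.12, adjusted p = 0.004). MATN2 (0.93) and MFAP3 (0.52) were higher with no overlap, and ABI3BP (-0.54) and ECM2 (-0.51) were lower. The number of lower members was 1 without serotonin 1, 4 or 5 or dexfenfluramine 1, 2, 4 or 5, under upper-quartile scaling and with the replicate block. MGP, an inhibitor of calcification, did not differ by the test (933.5 ± 294 against 996 ± 117 CPM; SD, n = 5; -0.09, SE 0.18, adjusted p = 0.74), and its sign turned without dexfenfluramine 4 (0.01, adjusted p = 0.98). Of 22 matrix proteases and their inhibitors, 5 were higher and 2 lower (median 0.17, and 0.11 without serotonin 2). The lower members were the metalloprotease ADAMTS1, at 139 ± 15.8 CPM with dexfenfluramine and 304 ± 53.7 CPM with serotonin (log2 fold change -1.13, SE 0.13, adjusted p = 6.4e-05), and the cathepsin CTSV (-0.45). ADAM15 (1.11), SERPINF1 (0.58), CST3 (0.49), MMP2 (0.46) and CTSB (0.41) were the higher members, whose number was 3 without serotonin 2, serotonin 4 or dexfenfluramine 2, and 4 members were lower with 1 RUVr factor.

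Integrins and their cytoplasmic partners tie cells to this matrix. Of 24 tested members, 12 were higher and 3 lower (median 0.30), and 7 were higher without serotonin 5. BCAR1, a scaffold protein of focal adhesions, was at 63.5 ± 3.39 CPM with dexfenfluramine and 107 ± 8.004 CPM with serotonin (SD, n = 5), with no overlap (log2 fold change -0.75, SE 0.08, adjusted p = 4.3e-05). ANTXR2 (-0.60) and ITGB8 (-0.40) were the other lower members. Of 23 genes of TGF-β and BMP signalling, 8 were higher and 2 lower (median 0.29, and 0.215 without dexfenfluramine 3). The co-receptor TGFBR3 was at 264 ± 20.2 CPM against 179.5 ± 23.1 CPM (0.56, SE 0.10, adjusted p = 0.0013), and the receptor ACVR1 at 84.5 ± 11.7 against 56.7 ± 6.94 CPM (0.57, SE 0.11, adjusted p = 0.0025). The lower members were FSTL1 (-0.44) and BMPR2 (-0.23), with 1 lower member left without serotonin 1, 3, 4 or 5 or dexfenfluramine 1, 2, 4 or 5. The same number was left under upper-quartile scaling, without a filter and with at least 10 counts in every valve. Of 31 growth factor and WNT ligands and receptors, 9 were higher and none was lower in this test (median 0.32), while 1 was lower without serotonin 2 (median 0.19) or dexfenfluramine 3, with DESeq2, with limma-voom and with all 20 valves, and 3 were lower with svaseq variables or 1 RUVr factor. WNT11 rested on few reads, 18, 30, 24, 22 and 26 with dexfenfluramine and 7, 8, 7, 4 and 4 with serotonin (log2 fold change 1.37, SE 0.25, adjusted p = 0.0016). PDGFRB, the platelet-derived growth factor receptor of mesenchymal cells, was at 70.7 ± 4.75 against 48.9 ± 6.44 CPM (0.53, SE 0.10, adjusted p = 0.0019). The large cadherin FAT1, among the most counted higher DEGs, was at 1276, 1128, 1530, 1128 and 1099 CPM with dexfenfluramine and at 991, 887, 918, 837 and 1104 CPM with serotonin. Serotonin 5 overlapped the dexfenfluramine valves, and the log2 fold change of 0.38 (SE 0.12, adjusted p = 0.033) did not pass without serotonin 2, 3 or 4 or dexfenfluramine 1 (adjusted p = 0.066, 0.062, 0.084 and 0.056).

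Of 11 tested markers of valvular interstitial cells or fibroblasts, 6 were higher with dexfenfluramine and none lower in this test (median 0.53), namely PDGFRB, COL3A1, TBX18 (0.85), DPT (0.55), COL1A1 and COL1A2. VIM (0.44), LUM (-0.30), TBX20 (-0.08), FAP (-0.07) and DCN (-0.02) did not pass. Apart from TBX18 and TBX20 these markers also stand in the lists above or in the cytoskeleton list, so that the counts share genes, and PDGFRA, POSTN and OGN had no symbol and were not found. The summed level was 9476, 10450, 13070, 8818 and 9802 CPM in dexfenfluramine valves and 8269, 6586, 8822, 8098 and 8210 CPM in serotonin valves, with VIM the most abundant gene. Dexfenfluramine 3 was the highest valve, and dexfenfluramine 4, the lowest of its group, was nearly equal to serotonin 3, the highest of the other. Without dexfenfluramine 3, 5 markers were higher and the median was 0.42. The part of these cells in the matrix result was not tested, and in bulk tissue more cells of a type and more RNA per cell cannot be told apart.

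**Figure D4:**
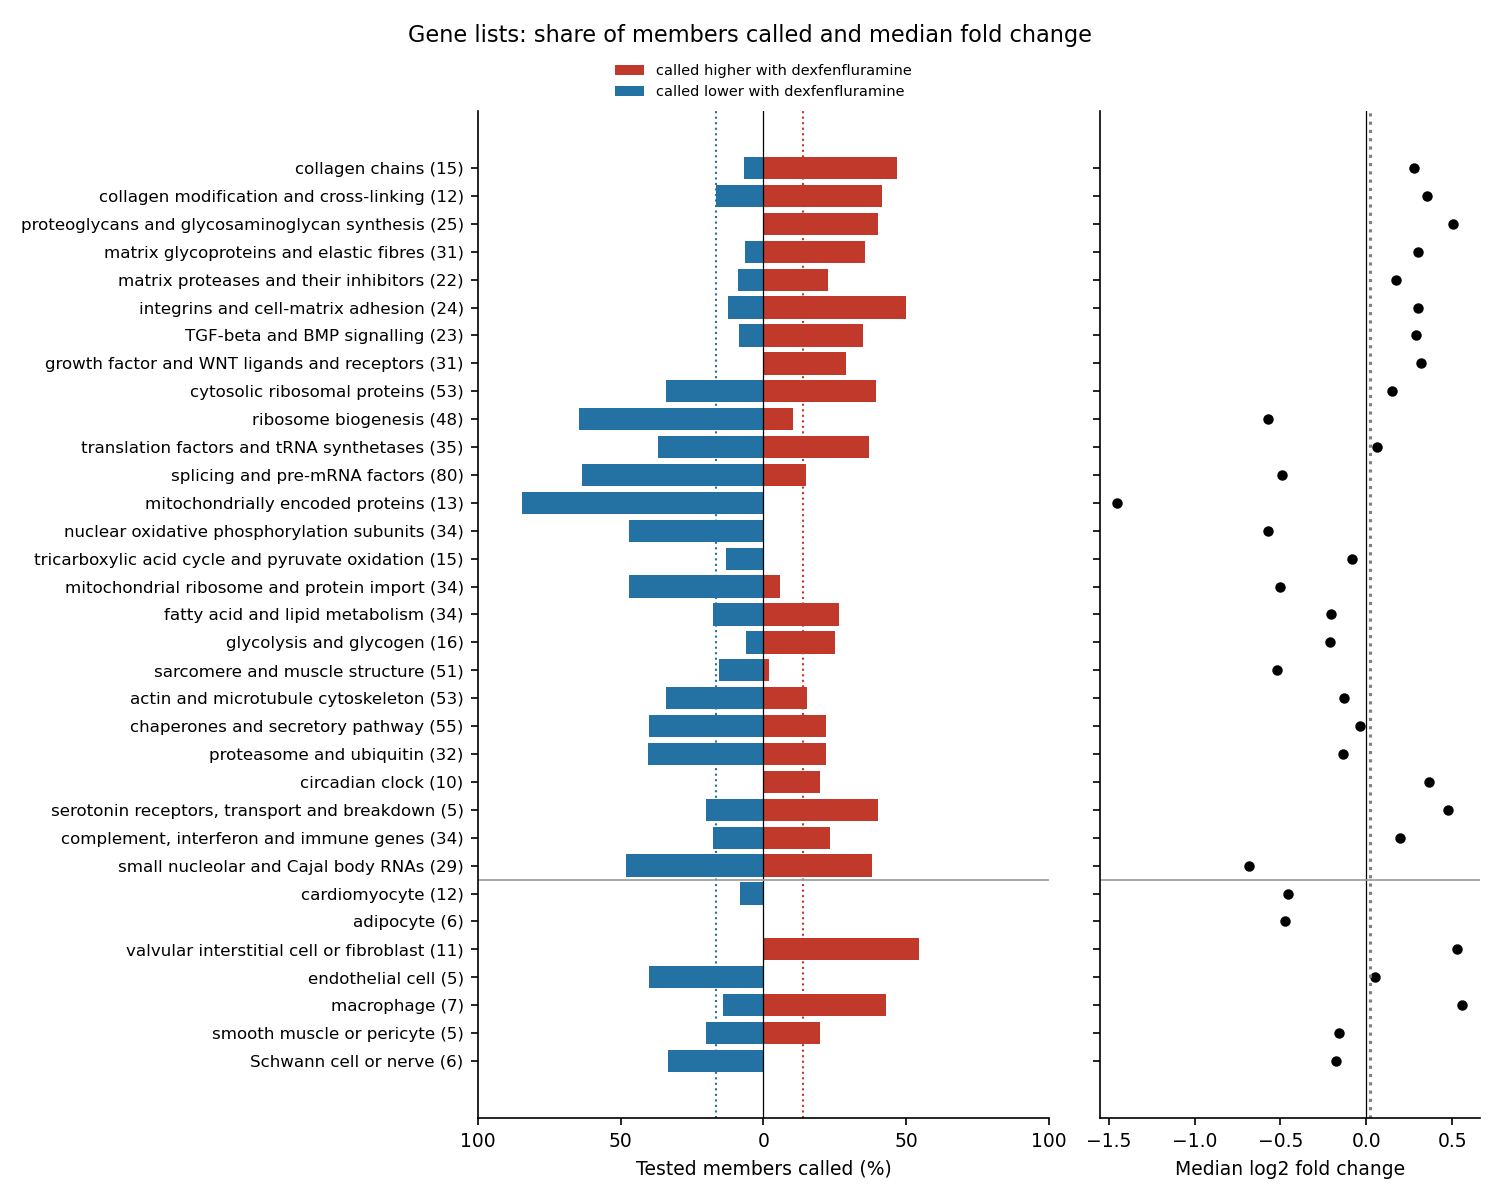
Left, share of the tested members (number in brackets) of each gene list that were higher (red, to the right) or lower (blue, to the left) DEGs, with dotted lines at the shares of all tested genes (13.8% and 16.8%). The shares of tested genes with a symbol, from which the lists were drawn, are 23.7% and 29.1% and are not marked. Right, the median log2 fold change of each list, with a dotted line at the median of all tested genes (0.02) and cell type markers under the grey line. Among the lists above that line, mitochondrially encoded proteins have the lowest median (-1.45).

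Ribosome biogenesis takes place in the nucleolus, where ribosomal RNA is transcribed, modified and assembled. Of 48 tested biogenesis factors, 31 were lower with dexfenfluramine and 5 higher (median -0.58). ESF1 (ENSOCUG00000005414), a nucleolar processing factor, was at 59.0, 59.3, 61.0, 57.1 and 57.7 CPM with dexfenfluramine and at 138, 167, 104.6, 118 and 134 CPM with serotonin. The dexfenfluramine valves were nearly level and all lay below the serotonin valves, which spread more widely (log2 fold change -1.17, SE 0.11, adjusted p = 2.8e-05). TAF1D, a subunit of an initiation complex of RNA polymerase I, was at 47.5 ± 4.71 against 106 ± 14.2 CPM (SD, n = 5; log2 fold change -1.16, SE 0.11, adjusted p = 2.2e-05). Nucleolin, NCL (-1.09), the most counted member, was also lower, and WDR36 (0.54), POLR1C (1.09), UTP4 (0.52), URB2 (0.55) and EIF6 (0.57) were higher. The number of higher members was 3 without serotonin 4 or dexfenfluramine 5. The summed level of the list was 1595, 1667, 1812, 1713 and 1794 CPM in dexfenfluramine valves and 2747, 3049, 2477, 2653 and 2745 CPM in serotonin valves, so that the groups were apart after TMM scaling. As shares of the counts on tested genes, without that scaling, the sums were 0.179% to 0.280% with dexfenfluramine and 0.190% to 0.283% with serotonin, which overlap.

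Of 80 splicing and pre-mRNA factors, 51 were lower and 12 higher (median -0.49). HNRNPA2B1 (ENSOCUG00000026859), which binds nascent transcripts, was at 145, 149, 146, 155 and 155 CPM in dexfenfluramine valves and at 291, 327, 253, 277 and 298 CPM in serotonin valves. No dexfenfluramine valve came near the serotonin range (log2 fold change -0.95, SE 0.08, adjusted p = 1.9e-05), and the non-treated mean of 288.5 CPM lay in the serotonin range. HNRNPA3, a related protein with 2 gene identifiers under its symbol, was lower at both, with values at ENSOCUG00000002743 of 198 ± 12.4 against 420 ± 36.6 CPM (SD, n = 5; log2 fold change -1.09, SE 0.09, adjusted p = 1.5e-05). The lower members included the heterogeneous nuclear ribonucleoproteins HNRNPAB (-1.24), HNRNPH3 (-1.14), HNRNPM (-1.43) and HNRNPD (-0.65), and the serine and arginine-rich proteins THRAP3 (-1.39), PNN (-1.06) and SREK1 (-1.09). Among the higher members were PTBP2 (0.67), PTBP3 (0.90) and TIA1 (0.78), which regulate the choice of exons. The summed level ran from 8080 to 9328 CPM with dexfenfluramine and from 11320 to 13350 CPM with serotonin. Without TMM scaling, the list held 0.879% to 1.44% of the counts on tested genes with dexfenfluramine and 0.833% to 1.29% with serotonin, which shows no decrease.

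Small nucleolar and Cajal body RNAs guide the chemical modification of ribosomal and spliceosomal RNA. Of 29 tested, 11 were higher and 14 lower (median -0.68, and -0.78 without dexfenfluramine 3). Since most lie within host genes, their reads and those of the hosts cannot always be told apart. SNORA74 had 27, 25, 22, 20 and 24 reads in dexfenfluramine valves and 3, 2, 0, 2 and 3 in serotonin valves, so that its log2 fold change of 2.90 (SE 0.37, adjusted p = 0.00014) is uncertain in size. SNORA68 was at 12.3 ± 1.97 against 3.30 ± 0.926 CPM (SD, n = 5; log2 fold change 1.91, SE 0.22, adjusted p = 7.1e-05). With at least 10 counts required in every valve, 3 were higher and 8 lower.

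Ribosomal protein genes were split in direction. Of 53 tested, 21 were higher and 18 lower (median 0.15), and 14 showed no difference by the test. These genes have many processed copies, the counting of reads that align to several places is not known, and single values are therefore uncertain. RPL21 (ENSOCUG00000027750) had 2, 2, 6, 8 and 3 reads with dexfenfluramine and 79, 47, 32, 42 and 67 with serotonin. The groups were far apart but the low group rested on a handful of reads, so that the size of the log2 fold change of -4.21 (SE 0.35, adjusted p = 1.9e-05) is uncertain. RPL11 was at 143, 158.5, 207, 193 and 236 CPM with dexfenfluramine and at 377, 319, 319, 353 and 361 CPM with serotonin, again without overlap (-0.88, SE 0.13, adjusted p = 0.00036). With total counts and no scaling factor, 32 were higher and 8 lower (median 0.71). The summed level of the list was 6440 to 8953 CPM with dexfenfluramine and 8790 to 9508 CPM with serotonin after TMM scaling, and 0.722% to 1.38% against 0.548% to 0.966% of the counts on tested genes without it, where the groups overlapped, dexfenfluramine 3 was highest and serotonin 2 lowest. Dexfenfluramine 3 had the highest sum of its group and overlapped the serotonin range.

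Of 35 translation factors and tRNA synthetases, 13 were higher and 13 lower after TMM scaling, with a median of 0.07 that lay between 0.02 (without serotonin 5) and 0.10 (without dexfenfluramine 2) when 1 valve was left out and was 0.13 under upper-quartile scaling. EEF1B2 (ENSOCUG00000009848), which recharges the elongation factor with GTP, was at 102.5, 112, 139.5, 131 and 143 CPM with dexfenfluramine and at 360.1, 353, 279, 387 and 367 CPM with serotonin. All dexfenfluramine valves lay below the lowest serotonin valve (log2 fold change -1.48, SE 0.12, adjusted p = 1.6e-05), and the non-treated mean of 207 CPM fell between the groups. PAIP2, a repressor of translation that binds the poly(A)-binding protein, was at 99.8 ± 8.77 against 227.5 ± 34.9 CPM (-1.19, SE 0.11, adjusted p = 2.4e-05). EEF1A1, the elongation factor itself, was higher, at 2830.0 ± 335 against 1990.0 ± 252 CPM (SD, n = 5; 0.51, SE 0.13, adjusted p = 0.012), though it too has many processed copies.

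Mitochondrial DNA encodes 13 subunits of the respiratory chain and ATP synthase, all of them tested here, and 11 were lower with dexfenfluramine (median -1.45). COX2 (ENSOCUG00000029099), a subunit of cytochrome c oxidase, was at 7596, 8345, 2595, 6651 and 13770 CPM in dexfenfluramine valves and at 16090, 33210, 20080, 32150 and 20880 CPM in serotonin valves. The groups did not overlap, dexfenfluramine 3 was lowest and serotonin 2 and 4 were highest (log2 fold change -1.65, SE 0.38, adjusted p = 0.0068). Groups were likewise apart for ND1, ND2 (-1.81), ND3, ND4, ND4L, ND5 (-1.33), ND6, CYTB (-1.32) and ATP6, while ATP8 (-1.06, adjusted p = 0.018) overlapped. COX1 (-0.76, adjusted p = 0.14) and COX3 (-0.82, adjusted p = 0.07) did not pass the test, with values of 16230 ± 6641 against 27480 ± 10750 CPM for COX1 (SD, n = 5). The genes ATP8 and ATP6, and ND4L and ND4, overlap on the mitochondrial genome, so that reads in the shared stretch are uncertain. Summed over the 13 genes, the level was 56830, 46530, 19580, 49810 and 75370 CPM with dexfenfluramine and 78020, 166500, 89930, 145700 and 98150 CPM with serotonin. The lowest serotonin valve was close above the highest dexfenfluramine valve. As shares of the counts on tested genes, the sums were 3.03% to 7.68% and 8.04% to 10.4%, so that the groups were apart without TMM scaling too. Without dexfenfluramine 3, 11 genes were lower and the median was -1.25.

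The subunits of the same complexes encoded in the nucleus moved in the same direction in part. Of 34 tested, 16 were lower and none was higher in this test (median -0.57, and -0.43 without dexfenfluramine 3). The number lower was 10 without serotonin 2, serotonin 4 or dexfenfluramine 2 and 25 with 1 RUVr factor. Higher members numbered 2 without dexfenfluramine 3, 3 with svaseq variables and 1 with 1 RUVr factor. The list also counts ATPIF1 (ENSOCUG00000017932), an inhibitor of ATP synthase rather than a subunit. ATPIF1 was at 42.2, 31.2, 16.6, 34.2 and 51.2 CPM with dexfenfluramine and at 128, 379, 99.0, 187.5 and 122 CPM with serotonin. All dexfenfluramine valves were below the lowest serotonin valve, and serotonin 2 was the highest valve (log2 fold change -2.38, SE 0.38, adjusted p = 0.00065). ATP5J, a subunit of ATP synthase, was at 34.2 ± 11.7 against 110 ± 40.4 CPM (SD, n = 5; -1.68, SE 0.28, adjusted p = 0.00084). The lower members included subunits of complex I such as NDUFB3 (-1.45), NDUFB6 (-1.37) and NDUFB9 (-1.27), of complex III such as UQCRB (-1.06) and of complex IV such as COX7B (-1.31). ATP5B (0.33), the most counted member, did not pass.

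Of 34 genes of the mitochondrial ribosome and protein import, 16 were lower and 2 higher (median -0.51). The import chaperone TIMM8B was at 8.08, 6.02, 6.003, 6.72 and 8.84 CPM with dexfenfluramine and at 19.5, 34.2, 25.8, 29.6 and 23.4 CPM with serotonin. There was no overlap, and dexfenfluramine 3 lay with its group (log2 fold change -1.88, SE 0.18, adjusted p = 2.7e-05). MRPL47 was at 15.5 ± 2.19 against 33.95 ± 2.63 CPM (SD, n = 5; -1.13, SE 0.12, adjusted p = 4e-05). The higher members were HSPE1 (0.55) and MRPS23 (0.53), neither of which held without serotonin 2 or dexfenfluramine 5, and 1 higher member was found without serotonin 1, 3 or 5 or dexfenfluramine 1, 2 or 4. In the tricarboxylic acid cycle and pyruvate oxidation, 2 of 15 genes were lower and none was higher (median -0.08). They were DLD (-0.73, adjusted p = 0.017) and PDHA1 (-0.82, adjusted p = 0.025), both subunits of pyruvate dehydrogenase, and both overlapped between groups. PDHA1 did not pass without serotonin 2, serotonin 4 or dexfenfluramine 2 (adjusted p = 0.066, 0.062 and 0.064), which left 1 lower member. Without dexfenfluramine 3, 1 gene of the list was higher and the median was 0.03, while without dexfenfluramine 1 the median was -0.27, the lowest with 1 valve left out. With svaseq variables 4 were lower and 1 higher, and with 1 RUVr factor 5 were lower and 1 higher.

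Lipid and sugar metabolism was mixed. Of 34 genes of fatty acid and lipid metabolism, 9 were higher and 6 lower (median -0.21). INSIG2, which restrains sterol synthesis, was at 19.4 ± 1.47 CPM with dexfenfluramine and 11.1 ± 0.925 CPM with serotonin (SD, n = 5; log2 fold change 0.80, SE 0.12, adjusted p = 0.00033). The sterol carrier SCP2 was lower (-0.42, adjusted p = 0.0017), as were the β-oxidation enzymes ECHS1 (-0.86), HSD17B4 (-0.53) and ACADM (-0.87). The number of higher members was 5 without serotonin 2 or dexfenfluramine 1 or 4, and the median lay between -0.36 without dexfenfluramine 5 and 0.001 without dexfenfluramine 3. With svaseq variables 11 members were lower and with 1 RUVr factor 12. Of 16 genes of glycolysis and glycogen, 4 were higher and 1 lower (median -0.21). ENO1, a glycolytic enzyme, was at 169, 166, 192, 156 and 177 CPM with dexfenfluramine and at 87.6, 88.4, 103, 99.1 and 109 CPM with serotonin. Every dexfenfluramine valve was above every serotonin valve (log2 fold change 0.82, SE 0.09, adjusted p = 4.8e-05). PHKB, a subunit of the kinase that starts glycogen breakdown, was at 22.6 ± 1.82 against 8.26 ± 1.92 CPM (1.45, SE 0.16, adjusted p = 5.7e-05). PHKA2 (0.72) and UGP2 (0.52) were the other higher members, and STBD1 (-0.70) was lower. No member was lower without serotonin 1, 4 or 5 or dexfenfluramine 1, 2, 4 or 5, under upper-quartile scaling, without a filter or with the replicate block, while 6 were lower with svaseq variables and 7 with 1 RUVr factor. The median lay between -0.35 without dexfenfluramine 5 and -0.005 without dexfenfluramine 3.

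Heart muscle runs into the base of the tricuspid leaflets, and genes of striated muscle were abundant in these valves, led by titin, TTN. Of 51 tested genes of the sarcomere and muscle structure, 8 were lower and 1, the junction protein JUP (0.55), was higher (median -0.52). TNNT2 (ENSOCUG00000015634), the cardiac form of troponin T, was at 485, 378, 114, 851 and 551 CPM in dexfenfluramine valves and at 2032, 5764, 1191, 3649 and 3131 CPM in serotonin valves. The highest dexfenfluramine valve was below the lowest serotonin valve (log2 fold change -2.73, SE 0.50, adjusted p = 0.0016), and the non-treated mean was 3402 CPM. NEXN, an actin-binding protein of the Z-disc, was at 414 ± 125 against 1284 ± 515 CPM (SD, n = 5; -1.63, SE 0.28, adjusted p = 0.00098). The number of lower members was 4 without serotonin 2 and 13 without dexfenfluramine 3, when the median was -0.25, and 33 with svaseq variables, 35 with 1 RUVr factor and 13 with the replicate block. JUP did not pass without serotonin 2, 4 or 5 or any of the dexfenfluramine valves.

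All 12 tested cardiomyocyte markers belong to the muscle list, and only TNNT2 among them passed the test, although 11 had log2 fold changes below 0 (median -0.46). PLN, a regulator of the calcium pump, was at 1282, 1045, 285, 1147 and 1437 CPM with dexfenfluramine and at 1272, 2440.0, 1534, 2697 and 1745 CPM with serotonin. Dexfenfluramine 3 was far below the rest, the groups overlapped, and the log2 fold change of -0.90 did not pass (SE 0.35, adjusted p = 0.071), whereas it was -0.64 (adjusted p = 0.032) without dexfenfluramine 3 and passed with DESeq2 (adjusted p = 0.04), svaseq variables (4.9e-06), 1 RUVr factor (4.4e-05) and the replicate block (0.048). The summed level of the markers was 76730, 57700, 14380, 66640 and 78520 CPM in dexfenfluramine valves and 59320, 114800, 67500, 108600 and 70430 CPM in serotonin valves, and TTN was the most abundant. Serotonin 2 and 4 were highest and dexfenfluramine 3 lowest, as for the mitochondrial transcripts, and the other valves of both groups overlapped. MYH6, TNNI3, MYL3 and NPPA had no symbol and were not found. Without dexfenfluramine 3, 3 markers were lower and the median was -0.19, and 2 markers were lower without dexfenfluramine 5, with DESeq2 or with the replicate block, 8 with svaseq variables and 9 with 1 RUVr factor. Heart muscle is rich in mitochondria, and its part in the mitochondrial and muscle results was not tested.

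**Figure D5:**
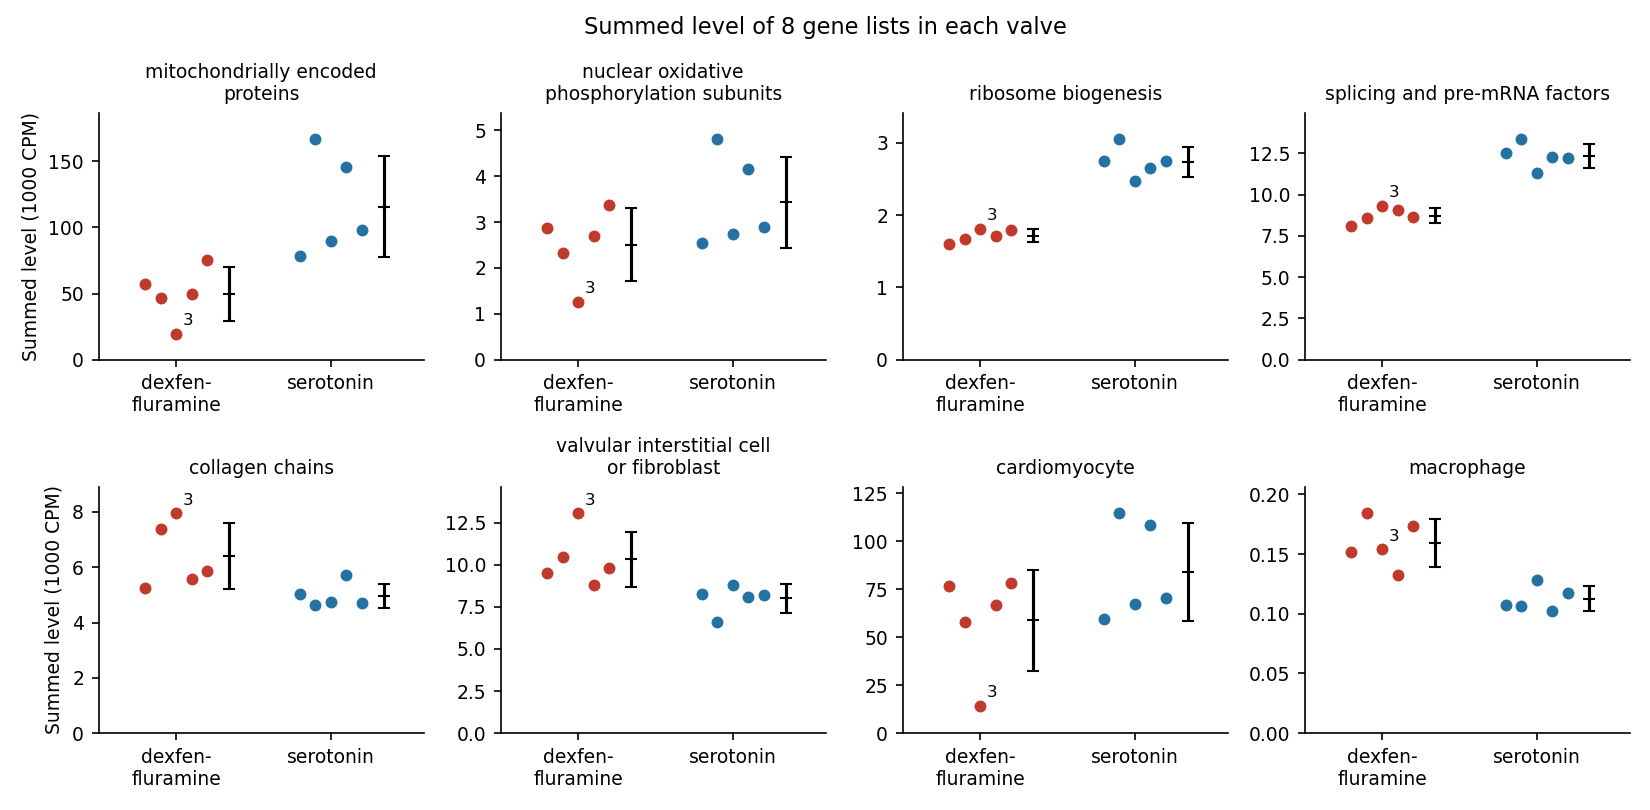
Summed level in 1000 CPM of 8 gene lists in each dexfenfluramine (red) and serotonin valve (blue), with bars for the mean ± SD of 5 valves and dexfenfluramine 3 marked. Ribosome biogenesis and splicing factors form tight groups that do not overlap, whereas cardiomyocyte markers spread widely in both groups and overlap.

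Of 53 genes of the actin and microtubule cytoskeleton, 8 were higher and 18 lower (median -0.13, and -0.07 under upper-quartile scaling). ACTR3, a core subunit of the complex that branches actin filaments, was at 8.98, 6.75, 8.61, 11.1 and 7.14 CPM with dexfenfluramine and at 26.5, 22.4, 25.8, 21.5 and 20.7 CPM with serotonin. Values did not overlap (log2 fold change -1.46, SE 0.15, adjusted p = 4.3e-05). CLTA, a clathrin light chain, was at 62.0 ± 5.75 against 127 ± 14.2 CPM (SD, n = 5; -1.04, SE 0.10, adjusted p = 2.5e-05). Of 55 chaperones and secretory pathway genes, 12 were higher and 22 lower, with a median of -0.04 that lay between -0.09 (without serotonin 1) and -0.02 (without serotonin 5) when 1 valve was left out and turned to 0.03 under upper-quartile scaling. SRP14, a part of the particle that targets nascent chains to the endoplasmic reticulum, was at 86.5 ± 8.70 against 187 ± 20.7 CPM (-1.11, SE 0.10, adjusted p = 1.9e-05). The co-chaperone DNAJC1 (-1.06) was also lower, while XBP1 (0.98), a transcription factor of the unfolded protein response, and SEC61A1 (0.92), a subunit of the translocation channel, were higher. Of 32 proteasome and ubiquitin genes, 7 were higher and 13 lower (median -0.13, and -0.07 under upper-quartile scaling). PSMD7, a subunit of the proteasome lid, was at 45.2 ± 3.60 against 89.2 ± 11.1 CPM (-0.98, SE 0.10, adjusted p = 3.6e-05), and the ubiquitin-conjugating enzyme UBE2E3 at 18.5 ± 1.21 against 7.46 ± 1.25 CPM (1.30, SE 0.14, adjusted p = 4.4e-05).

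Only 5 genes of serotonin reception, transport and breakdown had a symbol and were tested. Of these 2 were higher and 1, SLC22A2, lower (median 0.47, and 0.37 without dexfenfluramine 3). The serotonin receptor HTR4 was at 10.99, 8.94, 18.2, 6.91 and 8.67 CPM with dexfenfluramine and at 5.51, 2.68, 4.73, 4.02 and 6.89 CPM with serotonin. Dexfenfluramine 4 and serotonin 5 were nearly equal and the other values lay apart (log2 fold change 1.15, SE 0.30, adjusted p = 0.013). The other higher gene was ALDH2 (0.97), while the serotonin-degrading oxidase MAOA (0.47) and TGM2 (0.32) did not pass. With svaseq variables or 1 RUVr factor, 4 of the 5 genes were higher. Of 10 circadian clock genes, 2 were higher and none was lower in this test (median 0.36). NFIL3, a transcription factor that represses clock genes, had 88 reads in the dexfenfluramine valves together and 24 in the serotonin valves (1.23, SE 0.36, adjusted p = 0.023), and did not pass without serotonin 1 or 3 or dexfenfluramine 2 or 5 (adjusted p = 0.061, 0.053, 0.054 and 0.055).

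Of 34 complement, interferon and immune genes, 8 were higher and 6 lower (median 0.20). CXCR4, STAT4 (1.15), C1QB (1.09) and C4A (1.09) were among the higher members, and the interferon receptor chain IFNGR1 (-0.68), the toll-like receptor partner LY96 (-1.45) and the chemokine CCL21 (-1.37) among the lower. IFNGR1 was at 63.5 ± 6.16 CPM with dexfenfluramine and 102 ± 9.83 CPM with serotonin (SD, n = 5), with no overlap (SE 0.10, adjusted p = 0.00028). Of 7 macrophage markers, LAPTM5 (0.62, adjusted p = 0.002), C1QB (1.09, adjusted p = 0.0026) and CD53 (0.74) were higher and IGSF6 (-0.95) lower (median 0.56, and 0.67 without dexfenfluramine 3). The summed level of these markers was 152, 184, 154, 132 and 174 CPM with dexfenfluramine and 107, 107, 128, 102.5 and 117 CPM with serotonin, with STAB1 the most abundant. The lowest dexfenfluramine sum, 132 CPM, lay close above the highest serotonin sum, 128 CPM. The sums of both groups were small beside those of fibroblast markers. STAB1 (0.55, adjusted p = 0.053), SIGLEC1 (0.56, adjusted p = 0.12) and C1QA (-0.13, adjusted p = 0.80) did not pass the test. CD68, CD163 and CSF1R had no symbol and were not found, and the part of macrophages in the immune genes was not tested. The only lymphocyte marker tested, RASGRP1, was lower (-1.49, adjusted p = 0.014) with overlapping values, CD247 had too few reads for a test (20 and 38 in all), and CD3E and PTPRC had no symbol.

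Of the other cell types, endothelial markers had 2 lower genes of 5 (median 0.05), EMCN at 47.8 ± 9.18 against 73.9 ± 13.8 CPM (SD, n = 5; -0.63, SE 0.15, adjusted p = 0.0085) and PECAM1. The other tested endothelial markers, CD34 (0.22), ADGRF5 (0.07) and PTPRB (0.05), had log2 fold changes above 0 and did not pass. PECAM1 was at 141, 174, 235, 168 and 190 CPM with dexfenfluramine and at 208, 248, 303.5, 229 and 227 CPM with serotonin. The groups overlapped at dexfenfluramine 3, and the log2 fold change of -0.42 (SE 0.14, adjusted p = 0.036) passed without serotonin 1 or 2 or dexfenfluramine 3 but not without any of the others (adjusted p between 0.05 and 0.084), nor under upper-quartile scaling (0.064) or with all 20 valves in the fit (0.13). The endothelial median was -0.004 without serotonin 5 and lay between -0.07 without dexfenfluramine 3 and 0.12 without dexfenfluramine 2, and 1 marker was higher without dexfenfluramine 5. Summed levels were 737 to 1133 CPM and 802.5 to 1049 CPM, with ADGRF5 the most abundant, and CDH5, VWF and KDR had no symbol. Smooth muscle markers had 1 higher (TAGLN, 1.49) and 1 lower (MYH11, -1.41) of 5, with a median of -0.16 that was -0.37 without dexfenfluramine 1 and 0.07 without dexfenfluramine 3, DES the most abundant and ACTA2 without a symbol. TAGLN rested on few reads, 21, 40, 39, 34 and 13 with dexfenfluramine and 7, 8, 12, 3 and 4 with serotonin. The groups overlapped for TAGLN and MYH11. No smooth muscle marker was higher with at least 10 counts required in every valve, and 2 were lower with 1 RUVr factor. Schwann cell and nerve markers had 2 lower of 6 (median -0.18), the adhesion molecule NCAM1 (-0.31, adjusted p = 0.0071) and the neurofilament NEFL (-1.40, adjusted p = 0.0099), and 1 was higher without dexfenfluramine 3, when the median was -0.11, and the median was -0.09 without serotonin 1. SOX10 had no symbol. None of 6 adipocyte markers passed the test (median -0.47), among them LEP (-0.98, adjusted p = 0.31) and PPARG (-0.58, adjusted p = 0.41), and the median was -0.14 without dexfenfluramine 3, -0.78 without dexfenfluramine 2 and -0.09 without serotonin 1. Without serotonin 1 the log2 fold changes of LEP and PPARG were -0.255 and -0.258, that of LEP was -1.59 without dexfenfluramine 2 and that of PPARG -0.28 without dexfenfluramine 3. Their summed level was 120.3, 185, 11.4, 87.1 and 229 CPM with dexfenfluramine and 230.2, 94.1, 149, 147 and 117 CPM with serotonin, led by CD36 and lowest in dexfenfluramine 3, and FABP4 and PLIN1 had no symbol. HAPLN1 was the only chondrocyte marker tested, and GYPC (-0.43, adjusted p = 0.1) the only erythroid marker, which passed without dexfenfluramine 5 (-0.57, adjusted p = 0.031).

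Levels in the remaining groups are given without a test, since those valves took no part in the fit. The mean of the non-treated valves was nearer to that of the dexfenfluramine valves in 22.9% of higher DEGs and 16.8% of lower DEGs, beside 32.9% of all tested genes. It lay between the means of both groups for 831 higher and 970 lower DEGs, above both for 23 higher and 382 lower DEGs, and below both for 275 higher and 25 lower DEGs. The mean of the pergolide valves was nearer to that of the dexfenfluramine valves in 89.3% of higher and 92.7% of lower DEGs, beside 71.1% of all tested genes. SERPINH1 was at 28.0 ± 6.72 CPM with dexfenfluramine, 27.9 ± 4.98 CPM with pergolide, 11.4 ± 2.77 CPM with serotonin and 11.9 ± 2.89 CPM in non-treated valves (SD, n = 5). For ADAMTS1 the means were 139, 177, 304 and 201 CPM in the same order, with the serotonin valves highest. For the basement membrane chain COL4A6 they were 55.0, 39.2, 30.0 and 34.7 CPM, with the dexfenfluramine valves highest.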

How the data were processed

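The authors depleted ribosomal RNA, made stranded libraries, aligned reads to the rabbit genome oryCun2 with TopHat2 2.1.1 and counted them per gene with HTSeq. The values deposited by the authors are raw counts of 23669 genes. The annotation release, strand setting and treatment of multiply aligned reads are not given in the sources used here.

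Here, counts of the 10 valves were normalized by TMM and tested with edgeR's quasi-likelihood test (edgeR 4.0.16, R 4.3.3) after filterByExpr by group, which kept 8210 of 13178 genes with a count, with Benjamini-Hochberg adjustment over all of them. Log2 fold changes are dexfenfluramine minus serotonin. Scripts were tested on simulated data. With 5 valves a group, the spread between valves limits precision (median SE 0.166 over tested genes), as does counting error where reads are few. Each valve came from a separate rabbit.

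Symbols came from the study's supplementary gene lists, read for names only: of 3799 entries with an identifier, 2959 matched directly, 564 after an added zero was removed, 212 after lost zeros were restored, and 64 did not. Named genes were the 8 largest changes per direction among DEGs with a symbol, no overlap and mean log2 CPM of at least 3, the 4 most counted DEGs with a symbol per direction, the 2 smallest p-values of each of 26 process and 10 cell type lists, and COL1A2, MGP, RPL11 and HAPLN1. Other members were named after their values were seen. The members and lists were chosen with earlier results of these data known. Figures were drawn with matplotlib 3.10.9.

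Alternatives were DESeq2's size factors, upper-quartile scaling, leaving out the most counted gene, leaving out the filter, a floor of 10 counts in every valve, DESeq2 1.42.0, limma-voom (limma 3.58.1), limma-voom with svaseq variables (sva 3.50.0), 1 RUVr factor, a fit of all 20 valves, the replicate number as a block, an adjusted p under 0.01, fits that each lacked 1 valve and, chosen after seeing the data, total counts with no scaling factor.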

Additional observations from a re-analysis of the deposited data

Results flagged for a closer look

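In 11 of 256 groups of 5 valves compared, a valve lay far from the others: its gap to the nearest valve, divided by the range of the group, was above 0.71. Chance alone puts about 1 in 20 groups (5%) there. Dexfenfluramine 3 was the lowest valve of its group on the second principal component (-19.5, next 4.70, ratio 0.754). Among the dexfenfluramine valves it also had the highest summed CPM of proteoglycans and glycosaminoglycan synthesis (10040, next 6333, ratio 0.918), of TGF-β and BMP signalling (3400, next 2795, ratio 0.757), of translation factors and tRNA synthetases (7946, next 7268, ratio 0.735) and of the actin and microtubule cytoskeleton (17600, next 16100, ratio 0.711), and the highest level of ACVR1 (104.7 CPM, next 84.1, ratio 0.718).

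Of single genes in other valves, and among the dexfenfluramine valves only, PAIP2 was highest in dexfenfluramine 4 (115 CPM, next 98.7, ratio 0.779) and SNORA74 in dexfenfluramine 1 (6.06 CPM, next 4.56, ratio 0.711). Among the serotonin valves, IFNGR1 was lowest in serotonin 5 (84.1 CPM, next 105.1, ratio 0.900), and LEP was highest in serotonin 1 (12.3 CPM, next 4.19, ratio 0.717). In the same group, the summed CPM of small nucleolar and Cajal body RNAs was highest in serotonin 2 (697, next 453, ratio 0.719).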

How the results depend on the processing

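The number of DEGs lay between 2223 and 3116 in fits scaled by other factors or tested otherwise at the same threshold, with no valve left out: 2531 with DESeq2's size factors, 2590 with upper-quartile scaling, 2508 without the most counted gene, 2316 without a filter, 2356 with at least 10 counts in every valve, 2604 with DESeq2, 2451 with limma-voom, 2955 with svaseq variables, 3116 with 1 RUVr factor and 2631 with all 20 valves in the fit. At an adjusted p under 0.01 there were 1315, of which 465 were higher and 850 lower, as a stricter threshold must give fewer. Upper-quartile scaling moved the median of all tested genes from 0.02 to 0.08 and the higher share of DEGs from 45.1% to 54.7%. With total counts and no scaling factor, an alternative chosen after seeing the data, there were 4001 DEGs, 3810 higher and 191 lower. With 1 valve left out, DEGs numbered 2051 (without serotonin 4) to 2450 (without dexfenfluramine 3), 849 (without serotonin 4) to 1097 higher and 1177 (without dexfenfluramine 2) to 1353 lower, and 1757 of the 2506 (70.1%) stayed DEGs in the same direction in all 10 of those fits.

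Among 87 named genes, MGP, which was no DEG, reversed its sign when a valve was left out, its log2 fold change ranging from -0.27 (-0.272) to 0.01 (0.007), and the cause was not tested. With total counts and no scaling factor, 10 other named genes were lost and 1 was gained, and log2 fold changes turned to 0.115 for CTSV, 0.133 for SCP2, 0.159 for PECAM1, 0.234 for NCAM1, 0.097 for GYPC and 0.523 for MGP. That fit lacks the factors that TMM gives each valve. Other changes of call in fits without 1 valve were 23 losses and 4 gains.

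The same replicate numbers in both groups were not taken to pair the valves, since no pairing was seen, although so few valves cannot exclude one. Correlations of same-numbered valves, as deviations from their group means, were -0.134, -0.068, 0.191, 0.123 and -0.11, and 0 of 5 dexfenfluramine valves correlated best with its own number. With the replicate number as a block there were 2223 DEGs (84.2% of the 2506 kept), FAT1 (adjusted p = 0.063) and COL1A2 (0.085) were lost and PLN (0.048) was gained, and 13 genes of the muscle list were lower in place of 8. With svaseq variables 33 genes of that list were lower and with 1 RUVr factor 35, and 8 and 9 of the 12 cardiomyocyte markers. With 1 RUVr factor, 25 nuclear subunits of oxidative phosphorylation were lower in place of 16. The RUVr factor was computed from the residuals of the main fit, and the svaseq variables with the group kept in the model. Both therefore take up spread within the groups, so that more DEGs with them are no separate result about these genes. What that spread stands for was not tested.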
